A study of Mus musculus with 3 samples.

Results

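Titin (Ttn) and nebulin (Neb), 2 genes of the 30905 in the deposited tables, were described in T cells of mouse colon. They were chosen because an earlier analysis of the same counts found both higher in T cells of the libraries from neoplastic colon than in those of healthy colon. Their difference between stages is therefore given below as a description, and the results that follow are mainly about which T cells held their transcripts. Leukocytes (CD45+ cells) were sorted from the colon of C57BL/6 mice by flow cytometry and made into droplet libraries of transcript 3′ ends with molecular identifiers (UMIs), 1 library for each of 3 stages. Library C came from healthy mice. Library T1 came from colon with low-grade and library T3 from colon with high-grade intraepithelial neoplasia, a precancerous change of the lining. Both T1 and T3 mice had been given azoxymethane (AOM), a carcinogen, at 12 mg/kg and 3 cycles of drinking water with 2.5% dextran sodium sulfate (DSS), which injures the colon lining. The labels call the mice male and put the start of the model at 6 to 8 weeks of age. They do not state how many mice each library holds or their age when the tissue was taken. Since all neoplastic tissue came from treated mice, differences between C and the other libraries may come with the treatment or with the neoplasia, which cannot be told apart here.

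Titin and nebulin are giant proteins of striated muscle. Titin spans from the Z-disc to the middle of the sarcomere and works as its molecular spring, whereas nebulin lies along the thin filament and sets its length. T cells contain no sarcomeres, and neither protein belongs to the textbook set of T-cell genes. The subsets examined here are defined by their own products. Foxp3 is the lineage factor of regulatory T cells, which restrain immune responses and are frequent in the gut wall. Il10 encodes an anti-inflammatory cytokine made by many intestinal regulatory T cells, and Il17a encodes the signature cytokine of type 17 T cells, which defend the mucosa against microbes. Cd4 and Cd8b1 encode the co-receptors of helper and cytotoxic T cells, and Trdc encodes the constant part of the δ chain of γδ T cells.

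Both genes lie on the minus strand of mouse chromosome 2 in GRCm38. Ttn (ENSMUSG00000051747) runs over chr2:76703980-76982547, and its longest annotated transcript has 106824 bases in 347 exons. Neb (ENSMUSG00000026950) runs over chr2:52136647-52378474, and its longest annotated transcript has 22489 bases in 157 exons. The median of the longest transcript over 21877 protein-coding genes was 2681 bases, so both are far outside the usual length. Ttn overlaps the antisense gene Gm13938, and Neb overlaps Gm13521, a processed pseudogene on its own strand, as well as Gm13522 and Gm22095 on the other strand. Whether reads in introns were counted is not given in the sources used here, so reads from Gm13521 are a possible part of the Neb count. The overlapping genes on the other strand, Gm13938 among them, could add to the counts only if reads were counted without regard to strand. The promoter window of Ttn from RefSeq (GRCm38.p6, chr2:76982498-76982797, minus strand, from 250 bases before to 50 bases after the start) is shown because it holds the 5′ end of the annotated gene, where motifs of muscle and T-cell factors could be looked for. Capitals mark TATAA, the core of a TATA box.
Ttn promoter: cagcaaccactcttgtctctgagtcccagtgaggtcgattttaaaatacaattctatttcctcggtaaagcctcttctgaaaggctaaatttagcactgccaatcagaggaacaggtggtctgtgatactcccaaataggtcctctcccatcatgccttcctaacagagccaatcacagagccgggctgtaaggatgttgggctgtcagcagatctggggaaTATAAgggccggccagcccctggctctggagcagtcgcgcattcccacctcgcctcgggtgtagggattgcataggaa
The TATAA stood at position -28 from the start, and with both strands searched a TATAA was found in 24.87% of 32851 promoter windows of the same length. The window held an E-box (CANNTG, a palindrome read on both strands), a motif present in 72.31% of windows. It held no forkhead core GTAAACA (3.65% of windows), no AP-1 core TGANTCA (7.808%) and no CArG box (1.629%), also on both strands. The libraries count transcript ends, so they do not show which start of Ttn was used. The window of Neb was not used here.

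Of 7903, 8566 and 5779 deposited barcodes in C, T1 and T3, those with at least 200 detected genes and at most 20% mitochondrial UMIs were kept. A barcode was called CD3-positive with at least 1 UMI of Cd3d, Cd3e or Cd3g, the chains of the T-cell receptor complex, and at most 1 UMI of the B-cell genes Cd79a, Cd79b and Ms4a1. This gave 2070 CD3-positive barcodes in C, 2040 in T1 and 2408 in T3, with medians of 5729.5, 6198 and 3560.5 UMIs. B barcodes, with at least 2 B-cell UMIs and no CD3 UMI, numbered 2632, 2934 and 879 at medians of 4677.5, 5033.5 and 3385 UMIs. A UMI of Trac, the receptor α chain, was found in 78.1% of CD3-positive and 3.57% of B barcodes in C, in 85.0% and 3.03% in T1, and in 64.4% and 6.37% in T3. Library T3 stood apart in red-cell RNA, since 0.821% of CD3-positive barcodes in C, 0.343% in T1 and 79.1% in T3 held a haemoglobin UMI. All 3 libraries went against the label on sex. Xist, made from the inactive X chromosome of females, was at 1271, 1104 and 1106 CPM (a gene's UMIs scaled to all UMIs of a set of barcodes) in CD3-positive barcodes of C, T1 and T3, while the Y-linked Ddx3y, Eif2s3y and Uty had no UMI. Kdm5d, also Y-linked, had 1 UMI in CD3-positive barcodes of T3 and 1 in B barcodes of T1. The libraries shared few barcode sequences, 39 between T1 and C, 35 between T3 and C and 35 between T3 and T1.

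Ttn transcripts were few in every library and sat in CD3-positive barcodes far more than in B barcodes. They were not confined to CD3-positive barcodes. Barcodes with neither CD3 nor B genes exceeded these in C (7.96 against 3.26 CPM) and T1 (48.9 against 13.3 CPM, or 29.9 without the fullest barcode). In T3 such barcodes fell below the CD3-positive ones (10.3 against 19.2 CPM). Barcodes left out by the filters exceeded the CD3-positive ones in each library, also without their fullest barcode. CD3-positive barcodes held 39 Ttn UMIs in C, 169 in T1 and 174 in T3, which is 3.26 CPM in C (exact 95% Poisson interval 2.32 to 4.45), 13.3 CPM in T1 (11.4 to 15.5) and 19.2 CPM in T3 (16.4 to 22.3). UMIs are summed over a set of barcodes in CPM, so more positive cells and more transcripts per cell cannot be told apart in it. The 3 intervals of Ttn did not overlap, and they cover counting error only, as do all intervals here. The log2 ratio of CPM was 2.04 for T1 over C (exact interval 1.53 to 2.58) and 2.56 for T3 over C (2.05 to 3.1). A gene was counted as higher when its CPM was at least 2-fold up, its 2 groups held at least 100 UMIs in all and its interval excluded no difference. Under this rule 1.77% of 9046 genes were higher in T1 than in C and 3.07% of 8776 genes in T3 than in C. Ttn was among both sets, with 27 genes at a larger ratio in T1 and 23 in T3, and nothing is read from this since the gene was chosen on it. With 1 library per stage there is no replicate check and no p-value for any stage difference.

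Neb followed another order of the stages, with its highest level in T1. CD3-positive barcodes held 50 Neb UMIs in C, 420 in T1 and 94 in T3, which is 4.18 CPM in C (3.1 to 5.5), 33.2 CPM in T1 (30.1 to 36.5) and 10.4 CPM in T3 (8.38 to 12.7). The log2 ratio of CPM was 2.99 for T1 over C (2.56 to 3.44) and 1.31 for T3 over C (0.80 to 1.84), with 9 and 137 genes at a larger ratio, from which again nothing is read. For T3 over T1 it was -1.68 for Neb (-2.02 to -1.35) and 0.52 for Ttn (0.21 to 0.84), a comparison in which 4.96% of 8666 genes were lower and 2.01% were higher by the 2-fold rule. The genes therefore differed in which neoplastic library was higher, although for Ttn the sign did not hold when barcodes were drawn down to 1000 UMIs. This left out 421 of 2408 shallower barcodes in T3, 67 of 2040 in T1 and 80 of 2070 in C, and gave a log2 ratio of -0.27 for Ttn in T3 over T1 (-0.92 to 0.36). With the same shallower barcodes left out and the rest not drawn down, it was 0.55 (0.23 to 0.87). The T3 level of Neb rested in part on a single barcode with 24 of the 94 UMIs, and without the top barcode of each library the log2 ratio for T3 over C was 1.01 (0.45 to 1.58). Among CD3-positive barcodes without a haemoglobin UMI it was 0.72 (-0.22 to 1.58), on 15 Neb UMIs in T3.

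B barcodes of the same libraries were set beside the CD3-positive ones. They held no CD3 UMI by definition, so B barcodes that had taken up T-cell RNA were partly left out. Their level therefore does not bound what free RNA and undetected doublets can add. Ttn was at 0.275, 0.253 and 1.72 CPM in B barcodes of C, T1 and T3, from 4, 4 and 5 UMIs. Neb was at 0.275, 0.759 and 0.344 CPM there, from 4, 12 and 1 UMIs. The log2 ratio of CD3-positive over B barcodes was 3.56 in C (2.09 to 5.51), 5.72 in T1 (4.34 to 7.61) and 3.48 in T3 (2.23 to 5.12) for Ttn. For Neb it was 3.92 in C (2.48 to 5.85), 5.45 in T1 (4.63 to 6.41) and 4.91 in T3 (2.40 to 10.23). By the same rule with a minimum of 20 UMIs, 17.5%, 18% and 12.4% of genes were higher in CD3-positive than in B barcodes, so a difference of this kind was common. Both members were above the level of B barcodes in all 3 libraries.

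**Figure D1:**
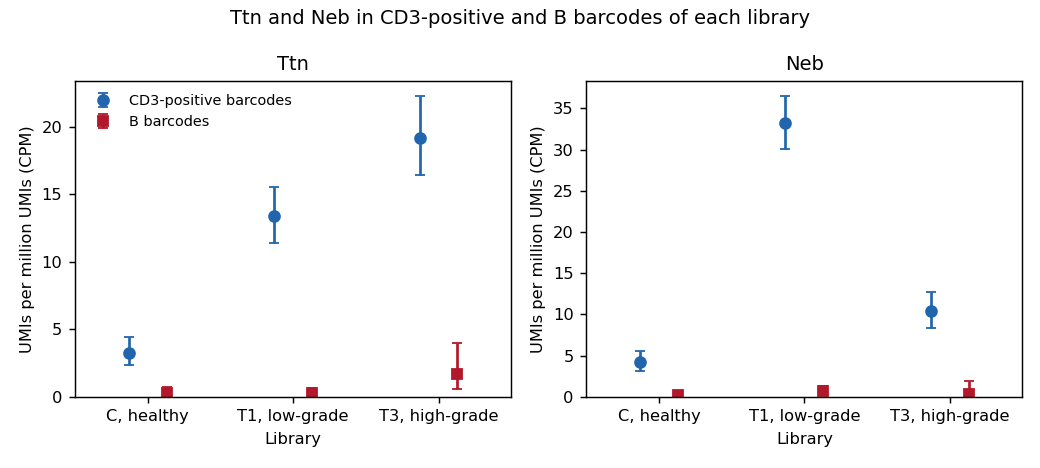
Level of Ttn (left panel) and Neb (right panel) as CPM of summed UMIs in libraries C, T1 and T3. Circles mark CD3-positive barcodes and squares B barcodes, with exact 95% Poisson intervals that cover counting error only. Ttn reached 13.3 CPM in T1 and 19.2 CPM in T3 and Neb 33.2 CPM in T1, while no B level was above 1.72 CPM.

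Few CD3-positive barcodes carried either transcript, and those that did often carried more than 1 UMI. A Ttn UMI was found in 1.35% of CD3-positive barcodes in C, 4.61% in T1 and 3.45% in T3, against 0.114%, 0.0682% and 0.341% of B barcodes. A Neb UMI was found in 1.74% of CD3-positive barcodes in C, 10.5% in T1 and 1.91% in T3, against 0.152%, 0.375% and 0.114% of B barcodes. Both shares stood above those of B barcodes at the similar depths given above. Of the CD3-positive barcodes with at least 1000 UMIs (1990 in C, 1973 in T1 and 1987 in T3), each drawn down to that depth, the shares with a UMI were 0.352%, 1.57% and 1.46% for Ttn and 0.302%, 3.70% and 0.604% for Neb. Of the 28, 94 and 83 barcodes with Ttn, 2 in C, 17 in T1 and 27 in T3 held 3 UMIs or more, and the fullest held 3, 13 and 7. Of the 36, 214 and 46 barcodes with Neb, 3, 46 and 5 held 3 UMIs or more, and the fullest held 4, 10 and 24. The 3 fullest barcodes held 20.5%, 18.3% and 12.1% of the Ttn UMIs and 20%, 6.67% and 36.2% of the Neb UMIs.

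In T1 and T3 barcodes with Ttn held Neb more often than those without it, while C had too few to tell. In C no barcode held both, and 0 of 28 barcodes with Ttn allow a share of up to 12.3% by the exact interval. This takes in the 1.76% with Neb among barcodes without Ttn, so nothing is read from the 0. In T1, 30 of 94 barcodes with Ttn also held Neb, 31.9% (22.7% to 42.3%), against 9.46% of barcodes without Ttn. In T3 it was 19 of 83, 22.9% (14.4% to 33.4%), against 1.16%. Among barcodes with no Foxp3 UMI the shares with Neb were 20.3% with Ttn and 4.49% without it in T1, and 13.6% and 0.839% in T3. Among barcodes with a Foxp3 UMI they were 51.4% and 46.1% in T1, intervals that overlapped, and 45.8% and 13.3% in T3. In T3 the barcodes with Ttn were deeper, with a median of 5754 UMIs against 3488 without it, and those with Neb had 5916.5 against 3519, whose part in the co-detection was not tested. In C and T1 the barcodes with either transcript had a slightly lower median than those without.

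Foxp3-positive barcodes, those with at least 1 Foxp3 UMI, held both genes at a many times higher level than the other CD3-positive barcodes. They made up 2.90% of CD3-positive barcodes in C, 13.1% in T1 and 3.49% in T3, and they held 28.2%, 39.1% and 33.9% of the Ttn UMIs and 62.0%, 58.3% and 34.0% of the Neb UMIs. Ttn was at 30.7 CPM in Foxp3-positive against 2.41 CPM in Foxp3-negative barcodes of C, 39.4 against 9.37 CPM in T1 and 149 against 13.3 CPM in T3. The log2 ratio was 3.67 in C (2.52 to 4.72), 2.07 in T1 (1.60 to 2.53) and 3.49 in T3 (3.01 to 3.95). Neb was at 86.6 CPM in Foxp3-positive against 1.64 CPM in Foxp3-negative barcodes of C, 146 against 15.9 CPM in T1 and 80.8 against 7.15 CPM in T3. The log2 ratio was 5.73 in C (4.86 to 6.63), 3.20 in T1 (2.91 to 3.49) and 3.50 in T3 (2.83 to 4.14). In this comparison 6.3%, 7.68% and 9.92% of genes were higher by the 2-fold rule, and the median log2 ratio over all genes was 0.05, 0.13 and 0.15. Only 5 of 10510 genes in C, 28 of 10402 in T1 and 53 of 9815 in T3 had a larger ratio than Neb. For Ttn 29, 184 and 54 genes did. A Neb UMI was found in 33.3%, 46.8% and 22.6% of Foxp3-positive barcodes, and a Ttn UMI in 10.0%, 13.1% and 28.6%.

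Within the Foxp3-positive barcodes the ratio to C had an interval excluding no difference for Neb in T1 and for Ttn in T3. The log2 ratio of Neb was 0.76 for T1 over C (0.22 to 1.35) and -0.10 for T3 over C (-0.86 to 0.66). That of Ttn was 0.36 for T1 over C (-0.57 to 1.43) and 2.28 for T3 over C (1.33 to 3.36). Among Foxp3-negative barcodes, the log2 ratios over C were 1.96 in T1 and 2.46 in T3 for Ttn, and 3.28 (2.60 to 4.05) in T1 and 2.13 (1.37 to 2.95) in T3 for Neb. When the 8 subsets described next were weighted in each library as they occur in C, Ttn came to 3.26, 10.1 and 15.2 CPM and Neb to 4.18, 13.1 and 6.63 CPM. On that scale the log2 ratios over C were 1.63 in T1 and 2.22 in T3 for Ttn, against 2.04 and 2.56 unweighted. For Neb they were 1.66 in T1 and 0.67 in T3, against 2.99 and 1.31 unweighted. The weighted values had the same signs as the unweighted ones.

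The CD3-positive barcodes were split into 8 exclusive subsets by the UMIs they held, taken in the order Foxp3, Il10, Il17a, Trdc, then Cd4 with or without Cd8b1, Cd8b1 alone, and none of the 6. Ttn stood highest in Foxp3-positive barcodes of T3 and was low or at 0 in those with Cd8b1 alone. Besides the Foxp3-positive barcodes given above, Ttn was at 31.0 CPM in the 24 barcodes with Il10 in C, 18.9 CPM in 110 in T1 and at 0 UMIs in 9 in T3. In barcodes with Il17a it was at 0 UMIs in C (17 barcodes), at 3.27 CPM in T1 (43) and at 110 CPM in T3 (51). Those with Cd4 alone held 5.75, 10.3 and 14.9 CPM, and those with none of the markers 0.821, 12.0 and 14.7 CPM. The barcodes with Cd8b1 alone, 316, 291 and 440 in number, held no Ttn UMI in C and T1 and 4.04 CPM in T3. A count of 0 allows up to 1.48 CPM there in C and 1.37 CPM in T1. Barcodes with Trdc held 2.94 CPM in C, 5.03 CPM in T1 and no UMI in 94 barcodes of T3, which allows up to 7.94 CPM. The small subset with Cd4 and Cd8b1 together held 4.85, 56.8 and 22.8 CPM, and in T1 18.5 CPM without its fullest barcode.

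In the order of Ttn levels most neighbours could not be separated by counting error. In C the Foxp3-positive barcodes were separated from the next lower subset, Cd4. In T1 they were separated from the Il10 subset below them and not from the 22 barcodes with Cd4 and Cd8b1 above them. In T3 the Foxp3 and Il17a subsets were not separated from each other, the Il17a subset was separated from that with Cd4 and Cd8b1, and the subset without markers from that with Cd8b1. The 20 Ttn UMIs of the Il17a subset in T3 came from 6 barcodes, and without its fullest barcode the level was 80.2 CPM.

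Neb was concentrated in the subsets with Foxp3, Il10 or Il17a, and stood at 11.4 CPM or below in the others. In the subset with Il10 its level was 23.3 CPM in C, 131 CPM in T1 and 0 UMIs in T3. The 9 barcodes of that subset in T3 are too few to show a difference, since 0 UMIs allow up to 128 CPM. In the subset with Il17a its level was 32.7 CPM in C (3 UMIs), 128 CPM in T1 (39 UMIs) and 204 CPM in T3 (37 UMIs). Without the fullest barcode these were 11.6, 97.1 and 72.7 CPM. The 24-UMI barcode in T3 belonged to this subset through 1 Il17a UMI, with 2592 UMIs in all, 8.99% of them mitochondrial. Subsets with Cd4 alone held 1.33, 4.34 and 2.83 CPM, those with Cd8b1 alone 1.48, 1.83 and 3.64 CPM, and those with Trdc 0, 3.77 and 2.65 CPM. The barcodes with none of the markers held 1.23, 11.4 and 2.40 CPM. In T1 the Foxp3, Il10 and Il17a subsets, at 146, 131 and 128 CPM, were not separated from one another. The lowest of them was separated from the subset without markers, and that from the Cd4 subset. In T3 the Il17a subset was separated from the Foxp3 subset, at 204 against 80.8 CPM, and the Foxp3 subset from the next below it. The first of these separations rested on the 24-UMI barcode, since without it the Il17a subset was at 72.7 CPM, below the Foxp3 subset. In C no neighbours were separated.

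**Figure D2:**
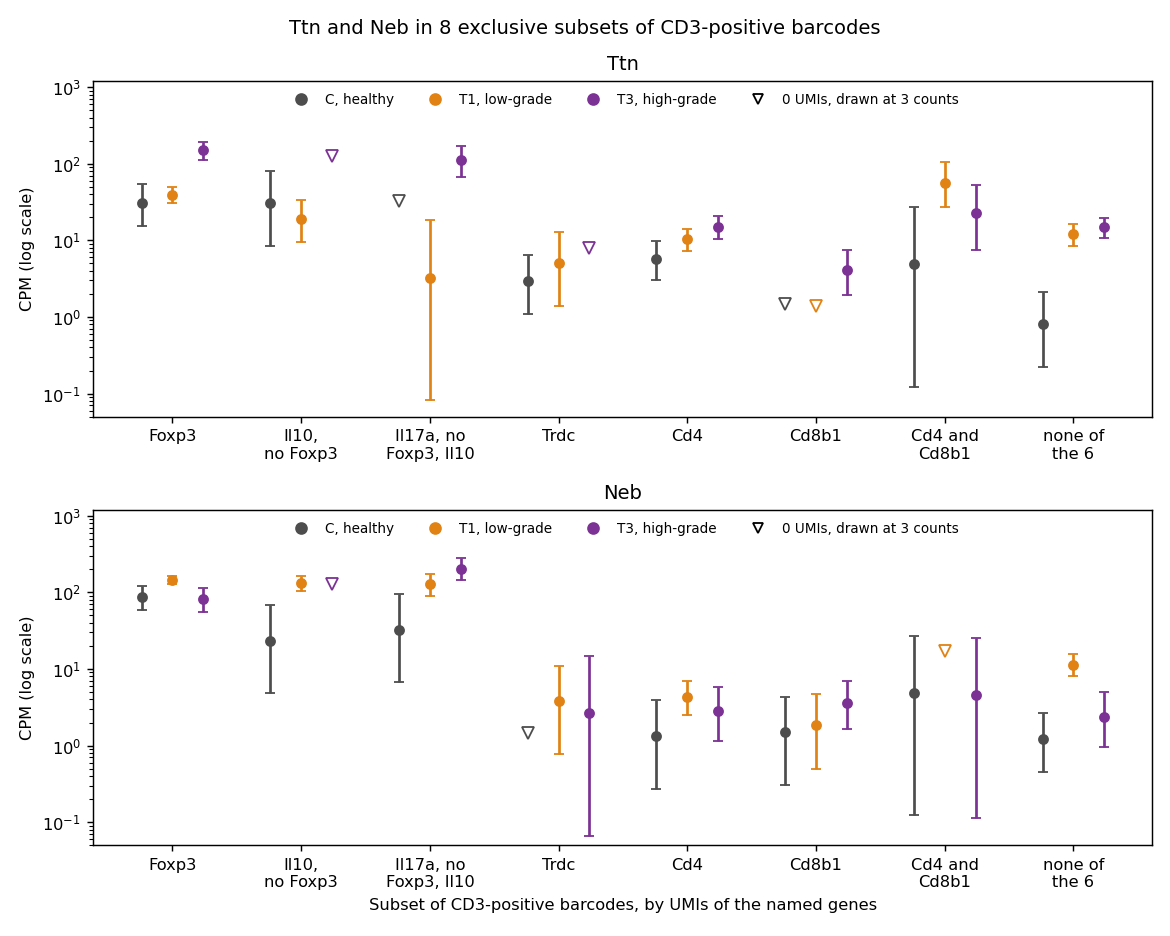
Level of Ttn and Neb (CPM, log axis) in the 8 exclusive subsets of CD3-positive barcodes in libraries C, T1 and T3, with exact 95% Poisson intervals; open triangles mark subsets with 0 UMIs, drawn at the upper limit that 3 counts would give. Neb in T1 stood at 146, 131 and 128 CPM in the Foxp3, Il10 and Il17a subsets and at 11.4 CPM or below in the others.

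Foxp3 and Il10 marked the genes differently. Of Foxp3-positive barcodes, 23 in C, 151 in T1 and 7 in T3 also held an Il10 UMI. Neb was higher with Il10 than without it among Foxp3-positive barcodes of T1, at 170 against 110 CPM, a log2 ratio of 0.63 (0.23 to 1.05). In C the Neb levels with and without Il10 were 109 and 67.4 CPM (log2 ratio 0.69, -0.42 to 1.84), and in T3 176 and 68.4 CPM (1.37, 0.00 to 2.57). Ttn ran the other way. In T1 it was at 19.7 CPM in Foxp3-positive barcodes with Il10 and 70.0 CPM in those without, a log2 ratio of -1.83 (-2.67 to -1.05). In C the Foxp3-positive barcodes with Il10 held no Ttn UMI and those without held 11, at 57.0 CPM. In T3 the levels with and without Il10 were 110 and 154 CPM, a log2 ratio of -0.48 (-2.16 to 0.83) on 7 barcodes with Il10. The 2 genes thus differed in sign in T1, with both intervals excluding no difference, while in C the interval of Neb and in T3 that of Ttn reached it.

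Without Foxp3, barcodes with Il10 held more of both genes in C and T1. Neb was at 131 CPM with Il10 and 9.51 CPM with neither in T1 (log2 ratio 3.78, 3.33 to 4.22), and at 23.3 and 1.39 CPM in C (4.06, 1.64 to 5.87). Ttn was at 18.9 CPM with Il10 and 8.84 CPM with neither in T1 (1.10, 0.04 to 2.0), and at 31.0 and 2.09 CPM in C (3.89, 1.91 to 5.43). Foxp3 without Il10, set against neither, gave log2 ratios of 4.77, 2.99 and 3.53 for Ttn and 5.60, 3.53 and 3.25 for Neb in C, T1 and T3. In T1 25 barcodes held both Foxp3 and Il17a, and 14 of them held Neb, at 191 CPM.

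**Figure D3:**
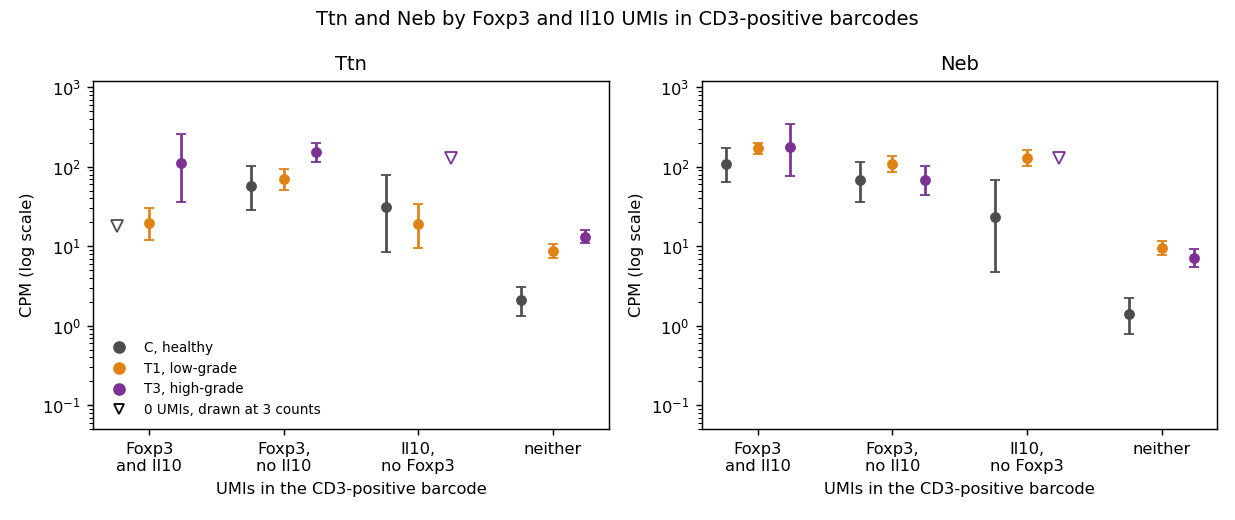
Level of Ttn and Neb (CPM, log axis) in CD3-positive barcodes grouped by Foxp3 and Il10 UMIs in libraries C, T1 and T3, with exact 95% Poisson intervals; open triangles mark groups with 0 UMIs, drawn at the upper limit that 3 counts would give. In T1 Ttn was lower and Neb higher in Foxp3-positive barcodes with Il10 (19.7 and 170 CPM) than in those without (70.0 and 110 CPM).

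Over all CD3-positive barcodes, those with Il17a held more Neb than those without, at 58.2 against 3.55 CPM in C, 144 against 27.1 CPM in T1 and 197 against 6.31 CPM in T3. The log2 ratios were 4.04 (2.73 to 5.14), 2.41 (2.06 to 2.75) and 4.96 (4.33 to 5.58). With Il10, whatever the Foxp3 count, Neb was at 71.4 CPM against 2.48 CPM without it in C, 156 against 15.5 CPM in T1 and 116 against 9.56 CPM in T3. Ttn with Il10 was at 13.6 CPM against 3.0 CPM without it in C, 19.4 against 12.5 CPM in T1 and 72.7 against 18.8 CPM in T3. With Il17a, Ttn was at 21.8 CPM against 3.04 CPM without it in C, 12.3 against 13.4 CPM in T1 and 103 against 17.4 CPM in T3, log2 ratios of 2.84 (0.50 to 4.5), -0.13 (-1.36 to 0.89) and 2.58 (1.82 to 3.25). Barcodes with Cd8b1 held less of both than those without, with log2 ratios of -3.26, -2.07 and -1.89 for Ttn and -1.54, -2.74 and -1.38 for Neb. Those with Cd4 held more Ttn, with log2 ratios of 2.82, 0.69 and 1.22, and for Neb the ratios were 2.36, 1.23 and 0.04 (-0.62 to 0.67 in T3). For Trdc the log2 ratio of Ttn was -0.20 in C (-1.74 to 1.08) and -1.24 in T1 (-2.88 to 0.02), and T3 held no Ttn UMI with Trdc. No Neb UMI was found with Trdc in C, and the log2 ratio of Neb was -1.56 in T1 (-2.63 to -0.66) and -0.47 in T3 (-2.78 to 1.12). Markers were read from at least 1 UMI, and a barcode without a UMI may still come from a cell that expresses the marker.

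The genes found with Ttn and with Neb outside the Foxp3-positive barcodes were compared next. In each library the Foxp3-negative CD3-positive barcodes with at least 1 UMI of the member, 22, 59 and 59 for Ttn and 16, 89 and 27 for Neb in C, T1 and T3, were set against those without. Barcodes with Cd4, Cd8b1 or Trdc were not compared separately here. The part of a different make-up of these in the values below was not tested. By the 2-fold rule with at least 20 UMIs, 4.73%, 5.48% and 7.73% of genes were higher with Ttn and 5.19%, 6.81% and 7.56% with Neb. Of 8987 genes compared in all 3 libraries, 48 were higher with Ttn and 90 with Neb in each. The median log2 ratio over all genes was 0.00, 0.21 and 0.21 with Ttn and -0.06, 0.15 and 0.08 with Neb.

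Ttn went with genes of T follicular helper cells, which help B cells in germinal centres. Of 10 such genes, 9 were higher with Ttn in C, 9 in T1 and 5 in T3, with list medians of 2.41, 1.60 and 1.10 on the log2 scale, and none was lower. Pdcd1 (the inhibitory receptor PD-1), Tox, Tox2 (both transcription factors), Sh2d1a (the signalling adaptor SAP) and Izumo1r (folate receptor 4) were higher in all 3 libraries. Izumo1r is counted in the list of regulatory T-cell genes too. Tox2 had log2 ratios of 3.51, 1.87 and 2.45 and Pdcd1 of 2.57, 1.97 and 2.09. Cxcr5, the chemokine receptor of follicles, had 3.48 in C, 1.61 in T1 and 0.27 in T3 (-2.04 to 1.88), and Bcl6, the factor that directs this lineage, had 2.34, 1.59 and 0.07 (-1.16 to 1.07 in T3). With Neb only 1, 1 and 3 of the 10 were higher and 1, 1 and 0 lower, at medians of 0.03, -0.53 and -0.27. Il21, their helper cytokine, had log2 ratios of 2.92, 3.01 and 0.91 with Ttn (-1.42 to 2.55 in T3).

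Neb went with type 17 and regulatory genes. Of the type 17 genes, 5 of 11 were higher with Neb in C, 12 of 12 in T1 and 9 of 11 in T3, with medians of 2.50, 2.40 and 3.52. Il17a, Il22 (a cytokine that acts on epithelium), Rora (a factor of the lineage), Ccl20 (a chemokine) and Ltb4r1 (a leukotriene receptor) were higher in all 3 libraries. Il17a was at 333 CPM with Neb against 16.7 CPM without it in C. In T1 it was at 1961 against 89.2 CPM, and in T3 at 2890 against 45.1 CPM. Of the Il17a-positive barcodes in C, 4 held Neb and 2 of these held Foxp3. The 30 Il17a UMIs behind the C value therefore came from only 2 barcodes. The 412 behind the T3 value came from 8. With Ttn 6 of 11, 4 of 12 and 10 of 11 type 17 genes were higher, at medians of 1.22, 0.75 and 3.18, and Il17a had a log2 ratio of -0.10 in T1 (-0.51 to 0.29). Il1r1 (a receptor for IL-1) and Ccr6 (the receptor of CCL20) were the only ones of this list higher with Ttn in all 3 libraries.

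Of the regulatory T-cell genes other than Foxp3 itself, 12 of 18 were higher with Neb in C, 13 of 18 in T1 and 13 of 16 in T3, at medians of 2.24, 1.91 and 2.44. Il1rl1, the IL-33 receptor ST2, had log2 ratios of 4.12, 3.08 and 4.12, Il2ra, the high-affinity IL-2 receptor chain, 2.78, 2.86 and 3.74, and the inhibitory receptor Ctla4 3.21, 2.47 and 3.09. Tnfrsf4, Tnfrsf18, Tnfrsf9, Icos, Gata3 and the actin-capping gene Capg were also higher in all 3. With Ttn 5 of 18, 11 of 18 and 13 of 16 were higher, at medians of 0.15, 1.13 and 2.58, and Tnfrsf4, Izumo1r and Capg were higher in all 3. Il1rl1 and Gata3 also mark innate lymphoid cells. Of the other markers of those cells, Calca and Il13 were higher with Neb in T1, at 3.71 and 3.71, while Ncr1, Klrb1c and Eomes had no UMI in the barcodes with Neb of any library. The part of innate lymphoid cells in these values was not tested. Maf, a factor of Il10-making T cells, was higher with both, at log2 ratios of 3.08, 1.39 and 2.65 with Ttn and 2.21, 1.86 and 2.21 with Neb. Of 12 Il10-associated genes, of which 11 were compared in C, 4, 4 and 5 were higher with Ttn and 3, 8 and 6 with Neb, at medians of 1.06, 0.94 and 0.92 with Ttn and 0.02, 1.64 and 1.29 with Neb.

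Genes of naive and recirculating T cells were lower with both members in T1 and T3. Of 10, 2, 7 and 7 were lower with Ttn and 2, 6 and 6 with Neb, at medians of -0.10, -1.34 and -1.49 with Ttn and -0.79, -1.14 and -1.04 with Neb, beside backgrounds of lower genes of 1.05%, 1% and 1.86% with Ttn and 0.795%, 1.73% and 0.99% with Neb. Of 12 cytotoxic genes 9, 0 and 8 were lower with Ttn and 5, 6 and 1 with Neb, so this list varied between libraries. Gzmb (granzyme B), for example, had log2 ratios of -2.53 in C and 0.61 in T1 with Ttn, and of 0.94, 1.62 and 4.62 with Neb. Of 25 genes of the T-cell actin cytoskeleton 0, 0 and 1 were higher with Ttn and 2, 1 and 2 with Neb, at medians of 0.12, 0.12 and 0.29 with Ttn and 0.30, 0.26 and 0.35 with Neb. Vim, encoding the intermediate filament vimentin, was the one higher with Neb in all 3, at 1.17, 1.13 and 1.34. The C values rest on 22 and 16 barcodes.

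**Figure D4:**
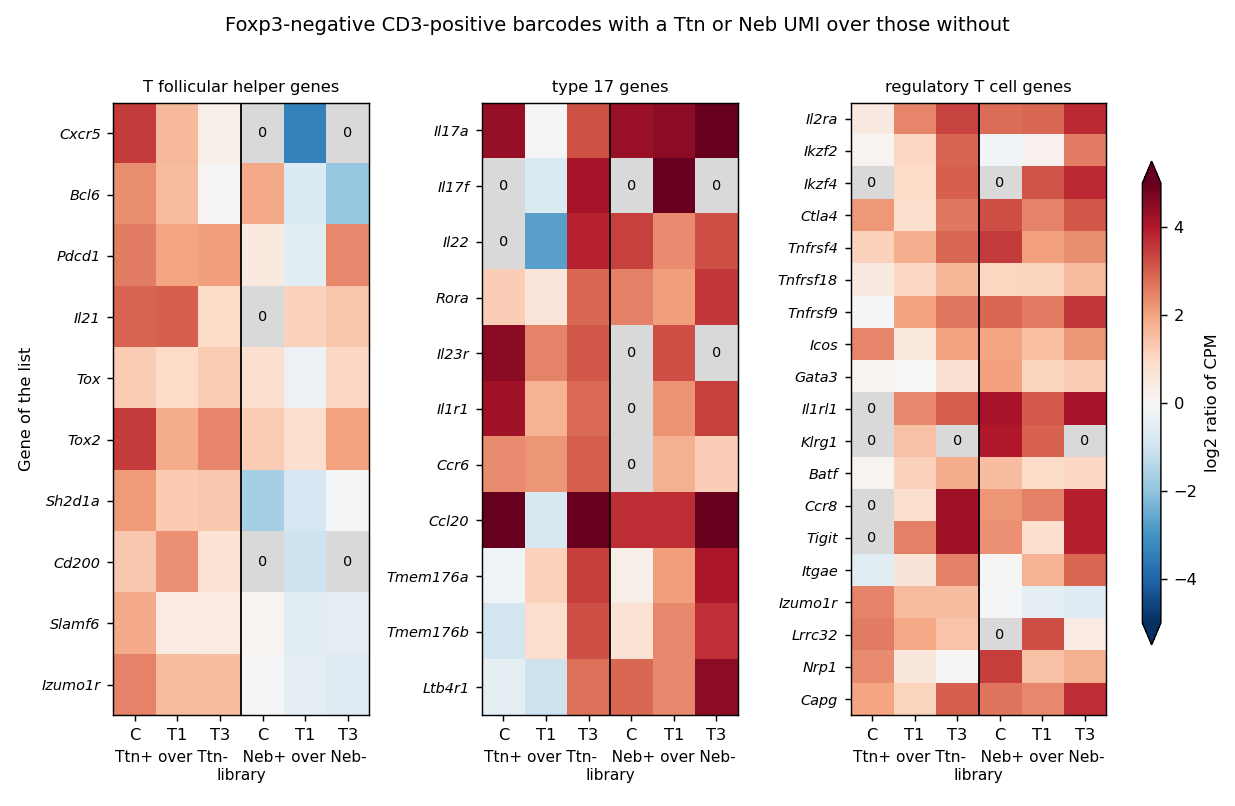
Log2 ratio of CPM in Foxp3-negative CD3-positive barcodes with a Ttn or Neb UMI over those without, in libraries C, T1 and T3, for 10 T follicular helper, 11 of 12 type 17 and 19 regulatory T-cell genes; a grey cell marked 0 has no UMI in the barcodes with the member, and genes with few UMIs are drawn too. In T1 the type 17 genes stood higher with Neb (list median 2.40) than with Ttn (0.75), and the follicular helper genes higher with Ttn (1.60) than with Neb (-0.53).

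The genes with the largest ratios in all 3 libraries were, for Ttn, Ccr6, Dst (dystonin, a cytoskeletal linker), Gpm6b (a membrane glycoprotein), Tiam1 (an activator of the GTPase Rac) and Nav2 (neuron navigator 2). Their log2 ratios lay between 2.0 and 3.47 over the 3 libraries, and Dst had 3.13, 2.18 and 3.36. For Neb they were Il17a, Havcr2 (the inhibitory receptor TIM-3), Areg, Ccl20 and Cpd (carboxypeptidase D). With Neb in C, Il17a rested on 2 barcodes, Havcr2 on 3 UMIs and Ccl20 on 2 UMIs. Areg encodes amphiregulin, a tissue-repair growth factor, and stands under the symbol Mcub in the deposited tables, with the gene ID ENSMUSG00000029378. It was at 244 CPM with Neb against 18.2 CPM without it in C, 709 against 30.7 CPM in T1 and 2897 against 31.3 CPM in T3. Havcr2 had log2 ratios of 4.78, 4.13 and 5.90 with Neb.

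Within the Foxp3-positive barcodes of both T1 and T3 Ttn was higher with Nrp1, Ikzf2 and Itgae, and Neb with Lag3 and Maf. Maf and Itgae did not set the 2 genes apart. Ttn was also higher with Maf in T3 (log2 ratio 2.29, 0.98 to 3.97), though not in T1 (-0.47, -1.50 to 0.73). Neb was also higher with Itgae in T1 (0.52, 0.13 to 0.91), and in T3 its interval reached no difference (0.71, -0.38 to 1.83). Of the regulatory T-cell genes compared in Foxp3-positive barcodes, Ttn was higher with 5 and lower with 2 of 19 in T1. In T3 Ttn was higher with 4 and lower with 1 of 17. The 2 in T1 were Capg, at a log2 ratio of -2.47, and Tnfrsf18, at -1.33. Neb was higher with 2 and lower with 0 of 19 in T1, and higher with 1 and lower with 1 of 17 in T3. With Nrp1 (neuropilin 1, frequent on thymus-derived regulatory T cells) Ttn was at 179 CPM against 30.0 CPM without it in T1 (log2 ratio 2.58, 1.73 to 3.37) and 304 against 108 CPM in T3 (1.49, 0.68 to 2.27). Ikzf2 (Helios, a factor frequent in those cells) gave 55.2 against 20.03 CPM in T1 and 179 against 71.6 CPM in T3, log2 ratios of 1.46 and 1.32, and in C 36.2 against 18.3 CPM (0.98, -1.29 to 4.23). Of 10 type 17 genes compared in T1, Ttn was lower with 7 and higher with 1 by their intervals. It was lower with 0 of 6 in C and 0 of 2 in T3, and higher with none there. In T1 Ttn was at 10.7 against 50.6 CPM with Il1r1 and at 4.88 against 50.7 CPM with Tmem176b. Il23r, a receptor of the lineage, went the other way at 110 against 34.5 CPM (1.67, 0.63 to 2.59). Neb was at 147 CPM with Ikzf2 and 146 CPM without it in T1, and at 94.2 CPM with Nrp1 and 150 CPM without it (-0.67, -1.75 to 0.23). It was higher with Lag3, an inhibitory receptor, at 174 against 106 CPM in T1 (0.71, 0.31 to 1.13) and 160 against 60.3 CPM in T3 (1.40, 0.26 to 2.50). For each gene 131 splits of this kind with at least 10 barcodes and 10 UMIs were compared over the 3 libraries. For Ttn 17 had an interval above and 26 an interval below no difference, and for Neb 12 and 9. The splits named here were chosen after their values were seen. Splits were made only for genes of the lists, so no share over all genes stands beside these counts.

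Across the 17 subsets with at least 50 barcodes in a library, the genes whose profile of log2(CPM + 1) was most like that of Ttn were Ccser2, Plcb4, Ubxn4, Pak2 and Mast4, with Pearson's r between 0.912 and 0.956. For Neb they were Ppp1r12a, Picalm, Dusp4, Fam96b (Ciao2b in the reference) and Rrad, with r between 0.944 and 0.961. Between Ttn and Neb r was 0.796, and Neb ranked 186 of 8987 genes in likeness to Ttn. The subsets share libraries, depth and cells, so these values are a description without a test.

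Most muscle genes were near absent. Of 40 sarcomere filament and Z-disc genes, 17 had no UMI in CD3-positive barcodes of any library, and 25, 20 and 25 had none in C, T1 and T3. Actc1, the myosin heavy chains Myh1, Myh2, Myh4, Myh6 and Myh7 and the light chains Myl2 and Myl3 were at 0 in all 3. Acta1, skeletal actin, had 0, 0 and 2 UMIs. Other light chains of the list, Myl1 and Mylpf, were detected. The list summed to 101, 84.2 and 43.4 CPM, mostly from Actn2 (567, 697 and 144 UMIs), Tpm1 (288, 159 and 115), Myl1 (170, 37 and 0) and Mylpf (75, 88 and 53). By the 2-fold rule, under which 2.08% of all genes were lower in T1 and 7.17% in T3 than in C, none of the 4 with at least 100 UMIs was higher than in C. In T1 1 was lower, Myl1 with a log2 ratio of -2.28, and in T3 2 were lower, Myl1 and Actn2 (-1.58). Of 12 smooth muscle genes, the muscle of the gut wall, Myh11 and Cnn1 were at 0 and the list summed to 1.92, 3.16 and 2.76 CPM.

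The proteins related to or bound by titin and nebulin did not share their difference between stages. Of 20 such genes 8 had no UMI in any library and 4 had at least 100 UMIs. None of the 4 was higher in T1 or T3 than in C. Nebl, encoding nebulette, the cardiac relative of nebulin, had 171, 172 and 79 UMIs and log2 ratios of -0.07 in T1 and -0.71 in T3. Lasp1, a LIM and SH3 protein that has nebulin repeats, had 632, 547 and 381 UMIs. Capn3, a protease bound by titin, had 496, 114 and 16 UMIs and log2 ratios of -2.20 and -4.55, and Fhl2, a LIM protein of the titin spring region, had 175, 82 and 15 and log2 ratios of -1.17 and -3.14. Within Foxp3-negative barcodes Nebl was higher with Neb in all 3 libraries, at log2 ratios of 2.62, 1.42 and 2.90.

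Other very long transcripts were set beside the members. Over all protein-coding genes, 1 had a longer annotated transcript than Ttn and 11 a longer one than Neb. The list is therefore nearly all shorter than Ttn and does not match its length. Of 26 genes of the list with at least 100 UMIs, 1 was higher in T1 than in C, Dst at 1.08 on the log2 scale. None was lower, and their median was -0.10 beside -0.08 over all genes. In T3 6 of the 26 were higher than in C and 1 was lower, at a median of 0.61 beside -0.13 over all genes. The 6 were Dst (1.34), Macf1 (1.02, another cytoskeletal linker), Lyst (1.08, a regulator of lysosomes), Mdn1 (1.32, a ribosome assembly factor), Kmt2d (1.02, a histone methyltransferase) and Dnah8 (1.67, a dynein heavy chain). Ahnak, a very large scaffold protein, was lower at -1.27. Long transcripts as a list thus stood above all genes in T3 and not in T1. Neb, at 1.31 in T3, lay within their range there. Their part in the T3 level of Ttn and Neb was not tested.

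**Figure D5:**
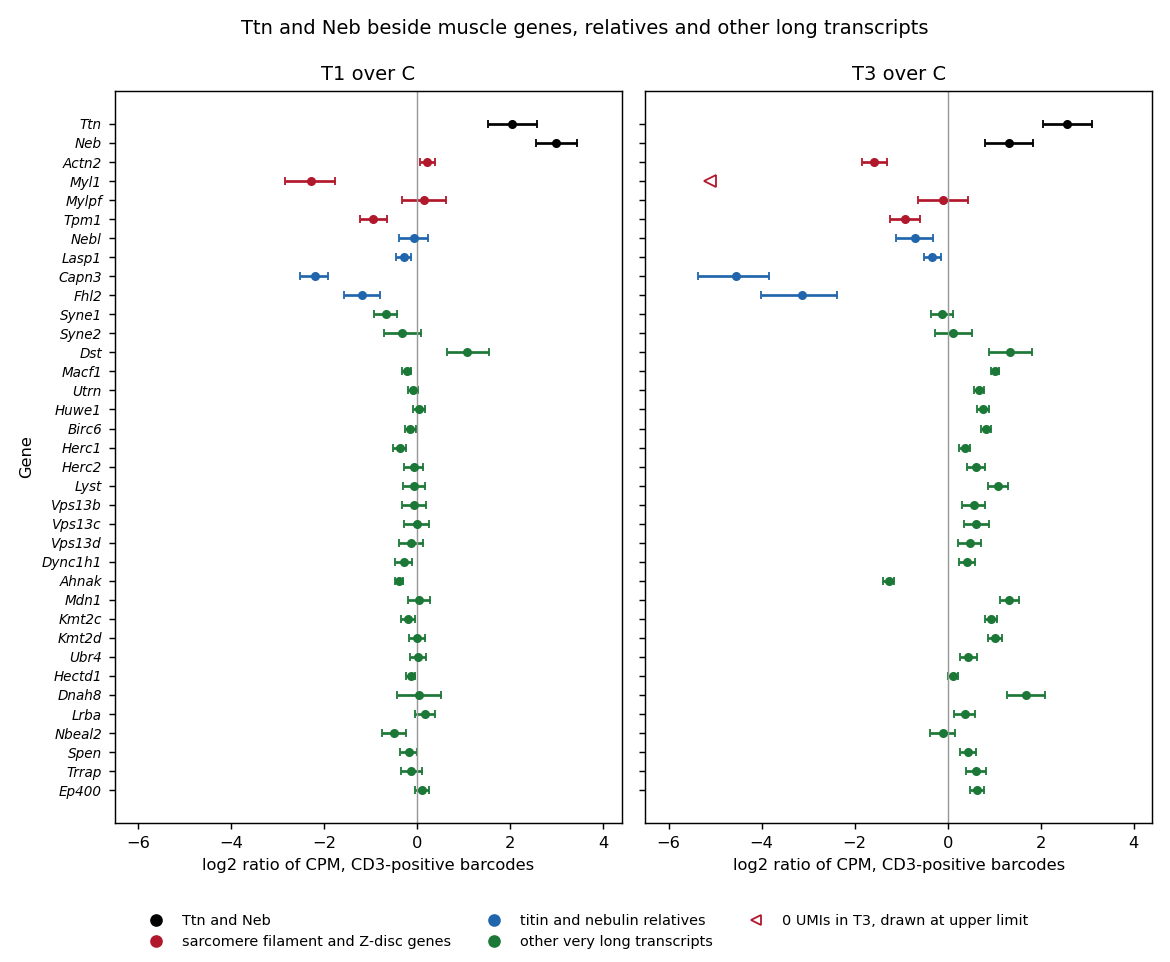
Log2 ratio of CPM in CD3-positive barcodes of T1 over C (left) and T3 over C (right) for Ttn, Neb, 4 sarcomere genes, 4 relatives and 26 other very long transcripts, with exact 95% intervals; Myl1 had 0 UMIs in T3 and is drawn at its upper limit. The long transcripts had medians of -0.10 in T1 and 0.61 in T3, and the largest long-transcript ratio, Dnah8 in T3 at 1.67, lay below Ttn at 2.56 and above Neb at 1.31 in T3.

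Markers of other cells in CD3-positive barcodes moved with the libraries. The 8 B-cell markers summed to 75.5, 70.1 and 105 CPM, 5 plasma cell markers to 133, 163 and 72.2 CPM, 8 myeloid markers to 51.6, 78.2 and 1064 CPM, and 8 innate lymphoid markers to 142, 124 and 86.7 CPM. The 6 epithelial markers summed to 59.9, 19.98 and 12.2 CPM the 5 erythroid markers to 38.8, 0.63 and 5344 CPM, and the 8 fibroblast and endothelial markers to 32.6, 44.8 and 70.3 CPM. Myeloid and erythroid RNA was thus highest in T3, the library with the highest Ttn level, and its part in that level was not tested. In T3 a haemoglobin UMI was found in 72.3% of CD3-positive barcodes with Ttn and 79.4% of those without it, and in 80.4% with Neb and 79.1% without it.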

How the data were processed

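For each of 3 libraries the authors deposited a matrix of raw UMI counts, not normalized. The libraries were made with the 10x 3′ V3.1 chemistry, per the labels' protocols. GRCm38, Cell Ranger 3.1.0, CASAVA 1.8 and Seurat 3.1.4 are named, without their roles, in the submitters' processing notes. The use of intron reads and the aligner settings were not given in the sources used here. No column of the files was left unused.

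The members and gene lists were chosen with earlier results of these data known. In C, T1 and T3, 164, 292 and 173 barcodes had under 200 genes and 1896, 2396 and 1142 had over 20% mitochondrial UMIs, and these were left out. Those with CD3 and B genes together (783, 608 and 333) were left out as likely doublets, and no doublet caller was run. UMIs were summed over barcodes and given as CPM with exact Poisson intervals. Ratios have exact conditional intervals, and shares exact Clopper-Pearson intervals, all at 95%. The labels give 1 library per stage, so nothing was tested for significance. All genes were compared by a fold of at least 2, an interval excluding no difference and at least 100 UMIs between stages or 20 within a library. Total depth was 35489195, 37208603 and 15898397 UMIs. A count of 0 was taken to allow 3 counts. Named genes were the members, those of 18 lists, the 5 most alike in profile and the 5 with the largest ratios in all 3 libraries. The rule was tried on simulated counts drawn with counting error only. They leave out the clumping of UMIs in single barcodes, so they do not show how the rule fares with it. Gene positions came from GENCODE M21 and the promoter from RefSeq, in which 1 of the 2 genes was matched. Python 3.11.15, numpy 2.4.6, scipy 1.17.1, pandas 2.3.3 and matplotlib 3.10.9 were used, and edgeR 4.0.16 for its TMM scaling of the counts as an alternative. Other alternatives changed the CD3 and mitochondrial cuts, the doublet rule, the depth, the scaling and the UMI minimum. Both alternatives on single barcodes, and leaving out barcodes under 1000 UMIs without drawing the rest down, were chosen after seeing the data. Some genes of the lists are counted in them and not reported here by name.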

Additional observations from a re-analysis of the deposited data

Results flagged for a closer look

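The log2 ratio of Ttn in Il17a-positive over Il17a-negative CD3-positive barcodes was -0.13 in T1 and 2.84 in C, opposite in sign. It was 2.58 in T3, also opposite to -0.13 in T1. The difference between libraries was not tested, and the T1 interval reached no difference.

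Both members also had UMIs in barcodes outside the comparisons, in several of these sets above C. In barcodes with neither CD3 nor B genes Ttn was at 48.9 CPM in T1 against 7.96 CPM in C, and at 29.9 CPM in T1 without the fullest barcode. In T3 it was there at 10.3 CPM, with a log2 ratio over C of 0.38 (-0.83 to 1.58). Neb was there at 31.4 CPM in T1 and 12.7 CPM in T3, against 2.84 CPM in C. In barcodes with CD3 and B genes together Ttn was at 7.81 CPM in T1 and 28.8 CPM in T3, against 0.601 CPM in C, and the T3 value was 4.67 CPM without its fullest barcode. Neb was there at 15.2 CPM in T1 and 5.57 CPM in T3, against 1.203 CPM in C. In the barcodes left out by the filters Neb was at 22.0 CPM in T1 and 4.41 CPM in T3, against 3.57 CPM in C. Ttn was there at 36.5 CPM in T1 and 25.8 CPM in T3, against 34.4 CPM in C, and neither ratio's interval excluded no difference.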

How the results depend on the processing

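No paired analysis was possible because each stage has 1 library. For the same reason no replicate could be left out. Of 209 recomputed ratios of Ttn and Neb, over 18 results and 12 settings, 190 moved by less than their counting interval, 18 moved by more and 1 changed sign. Some ratios over B barcodes could not be computed where no UMI was left in B barcodes. The sign change was that of Ttn in T3 over T1. With barcodes under 1000 UMIs left out and none drawn down, this ratio was 0.55. With the remaining barcodes also drawn down to 1000 UMIs, it was -0.27. That setting also moved Ttn in T1 over C to 2.60, Neb over C to 3.79 in T1 and 1.88 in T3, and Neb in Foxp3-positive over Foxp3-negative barcodes to 2.84 in T1 and 2.50 in T3. With at least 2 CD3 UMIs, Ttn in T3 over T1 was 0.84 and the Foxp3 ratio of Neb in T3 was 4.16. With barcodes of CD3 and B genes kept, the Foxp3 ratio of Ttn in T3 was 3.99. Without barcodes bearing a haemoglobin UMI, Neb was 0.72 in T3 over C and -2.28 in T3 over T1, Ttn was 0.94 in T3 over T1, and the Foxp3 ratios in T3 were 4.33 for Ttn and 5.27 for Neb. Without the fullest barcode, Neb in T3 over T1 was -2.07. With at most 1 UMI per barcode, Neb was 2.49 in T1 over C and 0.75 in T3 over C, Ttn was 1.97 in T3 over C, and Neb in CD3-positive over B barcodes of T1 was 4.60. The cause was not tested for any of these, beyond the fewer UMIs that each setting leaves. Genes higher than in C numbered 160 in T1 and 269 in T3. They were 80 and 142 at 1000 UMIs a barcode, 307 and 528 with a minimum of 20 UMIs, 376 and 654 with none, and 427 in T3 with mitochondrial, ribosomal protein, haemoglobin and immunoglobulin genes left out of the scaling. Over every setting Ttn in T1 over C stayed between 1.67 and 2.60 and Neb in T1 over C between 2.49 and 3.79. With 39 Ttn and 50 Neb UMIs in CD3-positive barcodes of C, depth limits every ratio to C.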

Other observations

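Single barcodes with many Ttn UMIs lay outside the classes compared. In C 1 barcode left out by the filters held 57 Ttn UMIs among 1553 UMIs, 44.1% of them mitochondrial, and no UMI of a sarcomere or smooth muscle gene. It set the level of Ttn in the left-out barcodes of C, which was 34.4 CPM with it and 8.93 CPM without it. In T1 a barcode with neither CD3 nor B genes held 25 Ttn UMIs among 1215, and in T3 a barcode with CD3 and B genes together held 26 among 7613. For Neb, a barcode of T1 with neither CD3 nor B genes held 12 UMIs among 749.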
